A study of Mus musculus with 8 samples.

Results

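The genes of the caveola coat were examined in white fat of the epididymis, from male mice. They are 8 of the 28295 genes listed: the caveolins Cav1, Cav2 and Cav3, the cavins Cavin1, Cavin2 and Cavin3, and the neck proteins Ehd2 and Pacsin2. They were chosen by name, and all 8 were found in the table under their current symbols. All mice carried Cul3 alleles flanked by loxP sites (Cul3-flox/flox), were fed Western diet for 8 weeks and were fasted for 6 h, and their age is not given. WT animals (4 libraries) lacked a recombinase. Animals of the KO group (4 libraries) had AdipoQ-Cre as well, a recombinase expressed from the promoter of the adiponectin gene, which is active in adipocytes and is not meant to delete Cul3 in the other cells of the tissue. The Cul3 product is a scaffold on which ubiquitin ligases assemble. The comparison asks what changes in the RNA of fat when Cul3 is deleted in adipocytes.

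Caveolae are flask-shaped pits of the plasma membrane and are especially dense in adipocytes and endothelial cells. Their coat is built from caveolins, which insert into the membrane and bind cholesterol, and from cavins, which form a peripheral shell around them. CAV1 and CAVIN1 are both needed for caveolae to form, and loss of either causes lipodystrophy. EHD2 is an ATPase that holds the neck of the caveola at the cell surface, and PACSIN2 is an F-BAR protein that bends the membrane there. Adipocyte caveolae are known for their part in fatty acid uptake, in insulin signalling and in buffering membrane tension as the cell fills with lipid.

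Cul3 itself was not lower in the KO libraries. It stood at 11.2 ± 1.13 FPKM (fragments per kilobase of gene, scaled to mapped depth) for WT against 12.0 ± 1.28 FPKM for KO (SD, n = 4 each; exact two-sided permutation test, p = 0.429). Scaled to a sum of 1000000 per library, Cul3 was higher by 0.37 on the log2 scale (limma adjusted p = 0.0477). In that scaling the median of all genes tested was itself higher by 0.24. A value per gene cannot show loss of single exons, so the Cre group is named KO-labelled, and each direction rests on those labels. Libraries held 15161209 to 19675026 reads in listed genes, recovered from the FPKM values. These made up 74.1% to 78.7% of the depth inferred from the FPKM values in WT libraries, against 62.6% to 66.1% for KO-labelled ones. Results are therefore also given scaled to the sum of each library. The adipocyte markers Adipoq (628 ± 127 FPKM in WT and 314 ± 44.5 FPKM in KO-labelled fat) and Plin1 (331 ± 48.6 and 218 ± 49.4 FPKM), which define the labelled tissue, were abundant in both groups.

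Testing required a mean of 0.5 FPKM or more. Of the 7 caveola genes that reached it, 3 were lower in the KO-labelled fat and none was higher. The genes that fell were Cavin1, Cavin3 and Ehd2, to 0.596, 0.561 and 0.591 of their WT level. In the same fit (limma, adjusted p under 0.05), 30.4% of all 14400 genes tested were called, 18.6% lower and 11.7% higher. The median log2 fold change was -0.55 over the 7 tested caveola genes and -0.02 over all genes tested. Cav1 and Cav2 had lower means (unadjusted p = 0.0179 and 0.0385 in the limma fit) but missed the threshold. Cavin2 differed little, and Pacsin2 had the only higher mean. No call of a rise was made on the values as deposited. Pacsin2 alone was higher at an unadjusted threshold (unadjusted p = 0.0382 in the limma fit over all genes). It was called higher under 3 other scalings: to a sum of 1000000 (adjusted p = 0.00406), to the reads in listed genes (adjusted p = 0.00521) and by quantiles (adjusted p = 0.0107). In these scalings 29.3%, 29.1% and 12.8% of all genes were called higher. Relative to the median of all genes, Pacsin2 was at 0.24 as deposited and at 0.25, 0.27 and 0.35 there. In whole tissue, fewer cells of a type and less RNA per cell cannot be told apart.

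**Figure D1:**
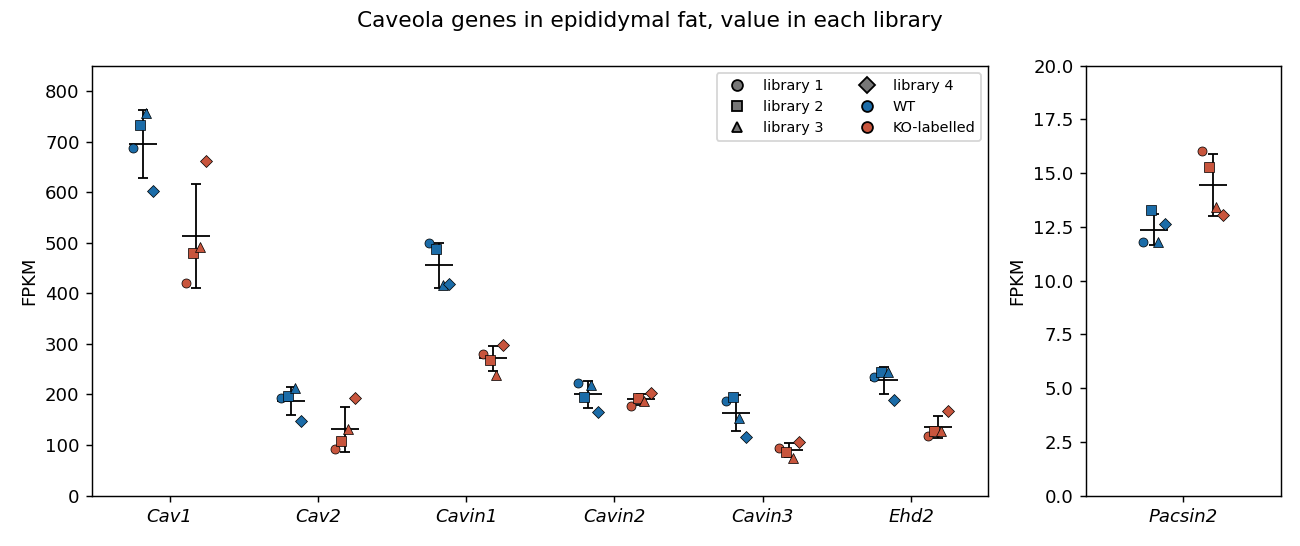
FPKM of 7 caveola genes in each of the 8 libraries. Blue symbols are WT, red symbols are KO-labelled, the symbol shape gives the library number, and black lines are the mean and SD (n = 4). The groups are separate for Cavin1, Cavin3 and Ehd2 and overlap for the other genes shown, and KO4 (red diamond) is the highest KO-labelled library for each gene except Pacsin2.

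Cav1, the principal caveolin outside striated muscle, was among the most abundant transcripts of the tissue. Its rank among all listed genes was 25 to 33 in WT libraries and 23 to 41 in KO-labelled ones. Its level was 687, 733, 756 and 603 FPKM in libraries WT1 through WT4, against 421, 480.2, 491 and 662 FPKM in KO1 through KO4. Of the KO-labelled libraries, 3 lay below every WT library, and KO4 lay above WT4, so the groups overlapped. The means were 695 ± 67.7 and 513 ± 103 FPKM (SD, n = 4 each), a log2 fold change of -0.45 ± 0.16 (limma adjusted p = 0.0559). The 95% interval of the fold change, which is not adjusted for the number of genes, ran from 0.573 to 0.934. The call depended on single libraries: without KO4 Cav1 was lower by 0.58 on the log2 scale (adjusted p = 0.0117) and without WT4 by 0.52 (adjusted p = 0.0417). Voom run on recovered reads called it too (adjusted p = 0.0392).

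Cav2, which assembles with CAV1 and depends on it to leave the Golgi, followed the same libraries. Its level was 192, 196, 212 and 147 FPKM in libraries WT1 through WT4, against 91.7, 108, 133 and 193 FPKM in KO1 through KO4. KO4 exceeded WT4 and WT1, while KO1, KO2 and KO3 stayed below all WT libraries. Its change on the log2 scale was -0.55 ± 0.23 (limma adjusted p = 0.0968), and without KO4 it was -0.76 (adjusted p = 0.0147). Cav3, the caveolin of striated muscle, was close to absent. It was listed at 0 to 0.108 FPKM, from 0 to 3 reads in each library, and was not tested. Of 10 skeletal muscle markers, 7 were also under the filter, while Acta1, the skeletal alpha-actin gene, stood at 25.1 ± 13.4 FPKM in WT and 9.14 ± 0.918 FPKM in KO-labelled fat (SD, n = 4 each).

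Cav1 and Cav2 are neighbours on chromosome 6 (mm10; Cav2 at 17281185 to 17289115 and Cav1 at 17306335 to 17341452, both on the plus strand), 17219 bases apart with no other listed gene between them. The 250 bases before their start sites are shown because these 2 genes had like profiles over the libraries, and those of Cavin2 because it was the cavin that was not called. Sequences are from RefSeq, build GRCm38.p6, at chr6:17306085-17306334, chr6:17280935-17281184 and chr1:51288876-51289125, each on the plus strand. Capitals mark GGGCGG on either strand, a GC box.
Cav1: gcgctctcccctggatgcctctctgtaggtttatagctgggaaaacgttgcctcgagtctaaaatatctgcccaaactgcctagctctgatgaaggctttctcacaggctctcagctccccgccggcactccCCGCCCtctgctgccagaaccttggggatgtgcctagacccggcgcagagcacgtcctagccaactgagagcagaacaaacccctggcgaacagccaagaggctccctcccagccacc
Cav2: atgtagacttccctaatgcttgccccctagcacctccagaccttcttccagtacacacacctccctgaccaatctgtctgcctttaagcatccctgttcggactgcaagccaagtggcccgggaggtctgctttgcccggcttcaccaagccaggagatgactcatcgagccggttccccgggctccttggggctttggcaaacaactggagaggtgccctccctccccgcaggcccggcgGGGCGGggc
Cavin2: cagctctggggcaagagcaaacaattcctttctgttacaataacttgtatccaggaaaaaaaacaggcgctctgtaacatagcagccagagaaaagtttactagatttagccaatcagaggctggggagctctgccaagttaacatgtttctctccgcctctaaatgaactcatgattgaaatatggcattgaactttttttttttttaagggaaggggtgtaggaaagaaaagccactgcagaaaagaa
A GC box was present once in the printed windows of Cav1 (as its reverse complement) and Cav2, and not in that of Cavin2. RefSeq gives Cav1 another start site, whose window held none, and windows of Cavin1, Ehd2 and Pacsin2 also held one, and 32.7% of 32817 promoter windows of this length held one. The G and C content was 59.6% and 62.0% before Cav1 and Cav2 and 40.4% before Cavin2. Neither TGACNNNGC, the core of the antioxidant response element (in 10.2% of windows), nor a sterol regulatory element (in 0.192%) matched on either strand in the 3 windows printed, and TGACNNNGC matched once in 1 of 3 windows of Pacsin2. Promoter windows were found for 7 of the 8 genes, all but Cavin3.

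Cavin1, the cavin without which the coat does not form, fell in KO-labelled fat. The WT libraries had 499, 487, 416 and 419 FPKM, and the KO-labelled libraries 279, 269, 239 and 298 FPKM. The groups did not overlap, and KO4 was again the highest of its group. Of all genes tested, 19.1% lay lower in KO-labelled fat without overlap, as did 3 of the 7 caveola genes. The mean went from 455 ± 43.9 to 271 ± 24.3 FPKM (SD, n = 4 each), a log2 fold change of -0.75 ± 0.11 (limma adjusted p = 0.00187). This call was kept in all 21 alternatives tried, with log2 fold changes of -0.82 to -0.47.

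Cavin3, which joins the caveolar shell through CAVIN1, fell by a like amount but was more spread in WT. Its level was 188, 195, 154 and 116 FPKM in libraries WT1 through WT4, against 93.2, 86.4, 75.1 and 106 FPKM in KO1 through KO4. All KO-labelled libraries were below all WT libraries, and WT4 and KO4 were closest to each other. Cavin3 changed by -0.84 ± 0.18 on the log2 scale (limma adjusted p = 0.00953), and without the libraries WT1 and WT2 it was -0.58 (adjusted p = 0.0911). Cavin3 shares 374 of its 1662 exon bases with Gm45667 on the opposite strand, whose level was at most 0.620 FPKM.

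Cavin2, which shapes the membrane around caveolae and is prominent in endothelium, was not called. Its level was 222, 195, 219 and 166 FPKM in libraries WT1 through WT4, against 176, 193, 188 and 203 FPKM in KO1 through KO4. The WT libraries enclosed the whole KO-labelled range. Its log2 fold change was -0.07 ± 0.12 (limma adjusted p = 0.684), with a 95% interval of 0.795 to 1.14 for the fold change. The sign of this small difference turned with scaling to a sum of 1000000 (0.21, adjusted p = 0.161).

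Ehd2, the ATPase of the caveolar neck, fell as Cavin1 did. Its level was 235, 244, 245 and 189 FPKM in libraries WT1 through WT4, against 118, 128, 127 and 168 FPKM in KO1 through KO4. WT4 was the lowest WT library and KO4 the highest KO-labelled one, yet the groups did not overlap. Ehd2 had a log2 fold change of -0.76 ± 0.14 (limma adjusted p = 0.00462), and without the libraries WT1 and WT2 it was -0.68 (adjusted p = 0.0618). Pacsin2, found at many endocytic sites besides caveolae, was the least abundant tested member, at 11.8, 13.3, 11.8 and 12.6 FPKM in libraries WT1 through WT4, against 16.0, 15.3, 13.4 and 13.0 FPKM in KO1 through KO4. KO4 lay below WT2, and the other KO-labelled libraries lay above all WT libraries. No member was higher without overlap, as 12.1% of all genes tested were. Its log2 fold change was 0.21 ± 0.09 (limma adjusted p = 0.0964).

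**Figure D2:**
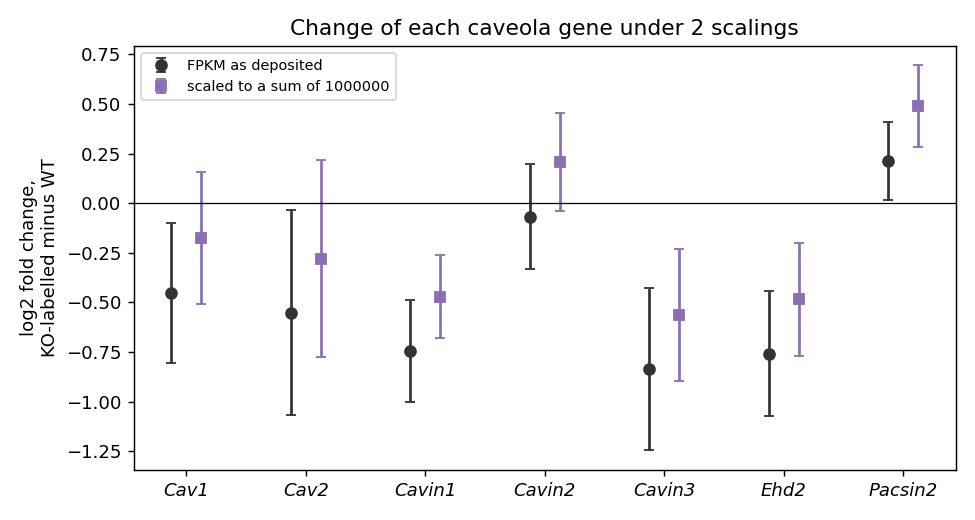
Log2 fold change (KO-labelled minus WT) of the 7 tested caveola genes with 95% intervals, on FPKM as deposited (black circles) and scaled to a sum of 1000000 per library (purple squares). Scaling moved every gene up by a similar amount, so that Cavin1, Cavin3 and Ehd2 stayed below 0 and the interval of Pacsin2 rose further above it.

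Scaling changed which members passed the test. Scaled to a sum of 1000000, the log2 fold change of the median gene was 0.24, and 8.26% of genes were called lower and 29.3% higher. Cavin1 (-0.47), Cavin3 (-0.56) and Ehd2 (-0.49) kept their calls there (adjusted p = 0.00511, 0.0176 and 0.0170), and Pacsin2 was called higher (0.49, adjusted p = 0.00406). Scaling to the reads in listed genes called the same 4 members, where 8.79% of genes were lower and 29.1% higher. Cav1 moved to -0.18 and Cav2 to -0.28, without a call (adjusted p = 0.360 and 0.334). Both of these scalings multiply each library by a constant, so they hardly move a gene relative to the median gene. Quantile normalization can move it: relative to the median of all genes, Cavin1 went from -0.72 as deposited to -0.47, Ehd2 from -0.73 to -0.48, Cav1 from -0.43 to -0.10, Cavin2 from -0.04 to 0.23 and Pacsin2 from 0.24 to 0.35. It called the same 4 members, where 14.6% of genes were lower and 12.8% higher.

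Ratios between members within a library do not change when the library is multiplied by a constant. The ratio of Cavin2 to Cavin1 FPKM was 0.444, 0.401, 0.526 and 0.395 in WT1 to WT4 and 0.632, 0.719, 0.784 and 0.682 in KO1 to KO4. The groups did not overlap, and the ratio was 1.60 times as high in KO-labelled fat (exact permutation p = 0.0286, the smallest that 4 against 4 allows, and 0.114 adjusted over the 8 ratios). The ratio of Ehd2 to Cav1 was the steadiest within groups, at 0.342, 0.333, 0.324 and 0.314 in WT1 to WT4 and 0.280, 0.267, 0.259 and 0.254 in KO1 to KO4. It was 0.807 times the WT value without overlap (exact permutation p = 0.0286, adjusted p = 0.114). The ratio of Cavin3 to Cavin1 was 0.356 ± 0.0547 in WT and 0.331 ± 0.0187 in KO-labelled fat. That of Cav2 to Cav1 was 0.268 ± 0.0167 and 0.251 ± 0.0359 (SD, n = 4 each). Neither difference in means exceeded the larger SD of its 2 groups (exact permutation adjusted p = 0.514 and 0.457). None of the 8 ratios passed after adjustment, and 2 had an unadjusted exact permutation p under 0.05. A ratio could pass only if several of the 8 stood at the smallest possible p, 0.0286. Missing the threshold therefore does not show that a ratio was unchanged. The remaining 4, of Cavin1, Cavin2, Cavin3 and Pacsin2 to Cav1, had adjusted p of 0.114 to 0.152, with overlapping groups.

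**Figure D3:**
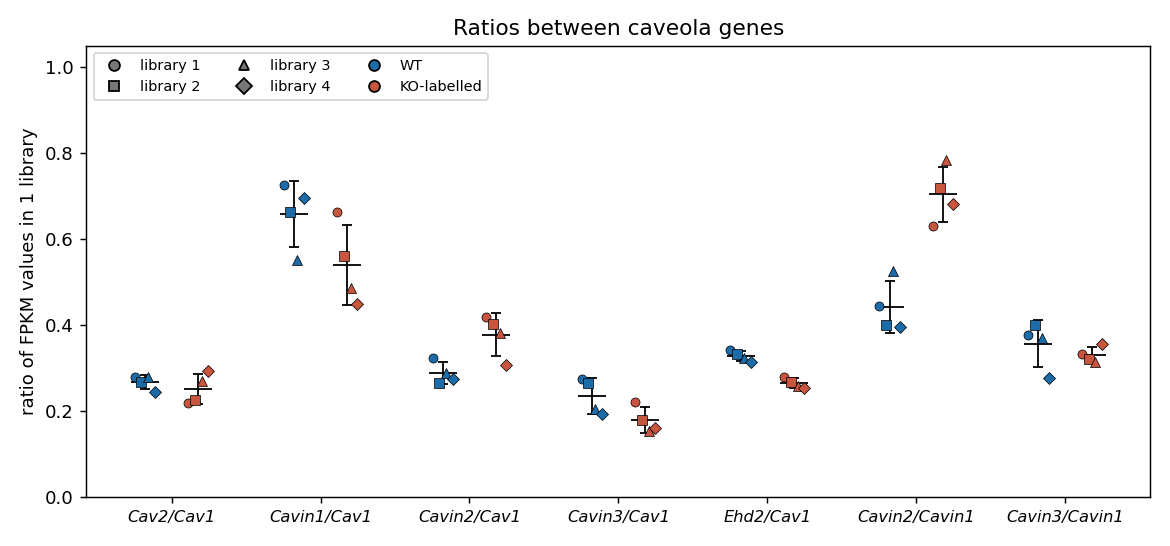
Ratio of the FPKM values of 2 caveola genes in the same library, WT in blue and KO-labelled in red, with mean and SD in black (n = 4). The groups are separate for Ehd2/Cav1 (0.314 to 0.342 against 0.254 to 0.280) and Cavin2/Cavin1 (0.395 to 0.526 against 0.632 to 0.784), and the ratio Pacsin2/Cav1, which is below 0.04, is not drawn.

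Within groups, the members did not all vary together across libraries. After each group was centred on its own mean, the values of Cav1 varied over the 8 libraries with those of Cav2 (Pearson r = 0.975) and Ehd2 (r = 0.967), which ranked 12 and 17 among the 5915 genes with a mean of at least 5 FPKM that were compared with Cav1. Without KO1 and KO4, the libraries farthest from their group mean for Cav1, r was 0.902 and 0.961 over 6 libraries. Cavin1 varied less with Cav1 (r = 0.353, rank 2034) and more with Cavin3 (r = 0.877). The r of Cavin1 with Cav1 was 0.168 without KO1 and KO4. Without KO3 and WT1, the libraries farthest for Cavin1, it was 0.491, and r with Cavin3 was 0.842. On uncentred values, r with Cav1 was 0.977 for Cav2, 0.955 for Ehd2 and 0.797 for Cavin1. The uncentred r of Cavin1 was 0.955 with Cavin3 and 0.931 with Ehd2. The genes most like Cav1 were Ywhab, a 14-3-3 protein gene (r = 0.998), Vldlr, a lipoprotein receptor gene (0.990), Clpx, of the mitochondrial matrix protease (0.988), Uqcrc2, a subunit of respiratory complex III (0.987), and Isca1, an iron-sulfur assembly gene (0.984). The genes most like Cavin1 were Mrpl57, a mitochondrial ribosomal protein gene (0.994), Cisd1, of the mitochondrial outer membrane (0.991), Itga7, an integrin gene (0.986), Cidec, of the lipid droplet (0.985), and Slc6a13, a GABA transporter gene (0.984). These values were picked as the highest of 5915 over 8 libraries that share depth and tissue composition, and they are a description only.

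Markers of adipocytes and endothelium, the cell types richest in caveolae, were lower in the same libraries. Of all genes tested, 18.6% fell and 11.7% rose. When scaled to a sum of 1000000, 8.26% of all genes fell and 29.3% rose. Of 15 adipocyte markers, 13 fell and none rose (median log2 fold change -0.86; 9 fell when scaled to a sum of 1000000 and 6 without WT1 and WT2), with a summed level of 5253 to 8435 FPKM in WT and 3069 to 4309 FPKM in KO-labelled fat. Of 15 endothelial markers, 13 fell and none rose (median -0.65; 7 fell when scaled to a sum of 1000000 and 8 without WT1 and WT2), with sums of 375 to 517 and 251 to 301 FPKM. The mean log2 level of the adipocyte markers was 8.12 to 8.36 in WT1 to WT3 and 7.74 in WT4, and it was 6.86 to 6.92 in KO1 to KO3 and 7.36 in KO4. The mean over the 7 tested caveola genes was 7.52 to 7.57 in WT1 to WT3 and 7.24 in WT4, and it was 6.90 to 6.97 in KO1 to KO3 and 7.25 in KO4. WT4 and KO4 were thus alike in the mean over caveola genes, but the adipocyte mean of WT4 was above that of KO4. Single caveola genes differed between these libraries in both directions. Cavin1 (419 and 298 FPKM), Cavin3 and Ehd2 were higher in WT4. Cav1, Cav2 (147 and 193 FPKM), Cavin2 and Pacsin2 were higher in KO4. Of 15 macrophage markers, 6 rose and none fell (median 0.91), with overlapping sums of 578 to 1575 and 786 to 1849 FPKM. The count that rose was 13 without WT4, 9 without KO4 and 3 without any other single library, and 10 on values scaled to a sum of 1000000. Their mean log2 level was 3.72 to 3.77 in WT1 to WT3, 4.85 in WT4, 4.97 to 5.29 in KO1 to KO3 and 4.34 in KO4. The part of these markers in the caveola values was not tested.

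**Figure D4:**
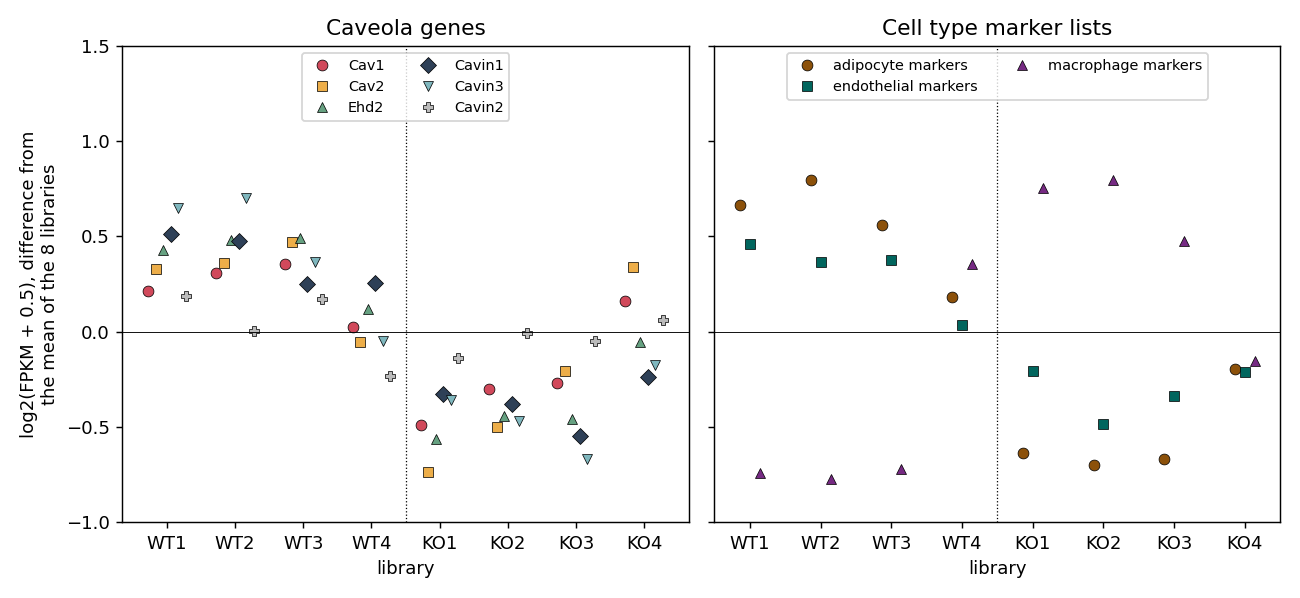
Difference of each library from the mean of the 8 libraries on the log2(FPKM + 0.5) scale, for 6 caveola genes (left) and for the mean of 3 marker lists (right), with a dotted line between WT and KO-labelled libraries. In each gene drawn except Cavin2, and in each marker list, WT4 and KO4 lie nearer to each other than other same-numbered libraries do.

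Markers of other cell types were mixed, where 18.6% of all genes tested fell and 11.7% rose. When scaled to a sum of 1000000, these shares were 8.26% and 29.3%. Of 11 smooth muscle and pericyte markers, which also carry caveolae, 3 rose and 2 fell (median -0.25; 3 and 1 on values scaled to a sum of 1000000), with summed levels of 195 to 289 FPKM in WT and 182 to 206 FPKM in KO-labelled fat. Cnn1, a smooth muscle calponin gene, rose from 0.320 ± 0.0767 to 2.41 ± 0.805 FPKM and Kcnj8, a pericyte potassium channel gene, fell by 0.95 on the log2 scale (limma adjusted p = 0.000449 and 0.000797). Cnn1 was near the floor in WT, at 14 to 26 reads per library. It passed the filter of 0.5 FPKM only through the KO-labelled libraries. Of 10 fibroblast and progenitor markers, 1 rose and 3 fell (median -0.38, sums 476 to 930 and 429 to 503 FPKM). None of the fibroblast markers fell when scaled to a sum of 1000000, by quantiles or with a replicate block, and 1 fell without KO2, KO3 or KO4. None of 8 tested mesothelial markers was called (sums 19.4 to 60.0 and 37.4 to 60.4 FPKM), with 1 more under the filter. Of these, Msln was called lower without WT1 (-0.82, limma adjusted p = 0.0426) and without both WT1 and WT2 (-1.08, adjusted p = 0.0126). Among 10 skeletal muscle markers, 3 were tested, of which Des, shared with smooth muscle, rose and Acta1 fell, with sums of 19.8 to 51.2 and 19.4 to 21.7 FPKM.

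Genes related to the caveolar neck changed in both directions. In a list of 12 family members and neck-associated genes, 9 were tested, 2 fell and 1 rose (median 0.12). Of all genes tested, 18.6% fell and 11.7% rose. Scaled to a sum of 1000000, 1 gene of the list fell and 3 rose, where 8.26% of all genes fell and 29.3% rose. Ehd1, the paralog of Ehd2 that works in endocytic recycling, fell from 43.0 ± 5.27 to 22.6 ± 1.75 FPKM (SD, n = 4; log2 fold change -0.91 ± 0.10, limma adjusted p = 0.000528). Per library, Ehd1 was 48.8, 45.9, 39.5 and 37.6 FPKM in WT and 23.8, 20.3, 22.1 and 24.1 FPKM in KO-labelled fat, without overlap. Ehd3 rose by 0.40 ± 0.11 (limma adjusted p = 0.0273), a call lost without WT1, KO1, KO3 or KO4 (adjusted p = 0.0572 to 0.0632). Dnm1, a dynamin gene, fell by 0.58 (adjusted p = 0.0333), a call lost without WT2, WT3, KO1, KO3 or KO4 (adjusted p = 0.0565 to 0.0719). Dnm1 also lost its call scaled to a sum of 1000000 (-0.35, adjusted p = 0.197) or to the reads in listed genes (-0.35, adjusted p = 0.158). The same held with array weights (adjusted p = 0.0641), without a filter and with a replicate block. Dnm2, the ubiquitous dynamin that cuts vesicles from the membrane, named after its values were seen, was 21.2 ± 0.725 FPKM in WT and 18.4 ± 1.72 FPKM in KO-labelled fat and was not called (adjusted p = 0.0922). Cavin4, the muscle cavin, was at 0.139 to 0.277 FPKM.

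Genes whose proteins reside in caveolae or depend on them also went both ways. Of 11 tested, 6 fell and 2 rose (median -0.33), beside 18.6% and 11.7% of all genes tested. Among those that fell, Plvap is also in the list of endothelial markers and Slc2a4 in that of adipocyte markers. The counts were 3 and 3 when scaled to a sum of 1000000, where 8.26% of all genes fell and 29.3% rose. They were 3 and 1 without WT1, WT2, KO2 or KO3, and 2 and 0 without both WT1 and WT2. Nos3, the endothelial nitric oxide synthase held in check by CAV1, fell from 13.4 ± 3.26 to 4.30 ± 0.625 FPKM (log2 fold change -1.51 ± 0.17, limma adjusted p = 0.000511). Aoc3, an amine oxidase of the adipocyte surface, fell by 0.70 (adjusted p = 0.00821, 0.0908 without WT1 and WT2, and 0.0532 by quantiles). Insr, the insulin receptor gene, rose from 7.18 ± 0.690 to 9.75 ± 0.761 FPKM (0.42 ± 0.09, adjusted p = 0.00919, and 0.0747 without WT1 and WT2). Cd36, the fatty acid translocase gene, named after its values were seen because of its abundance, was 989.7 ± 78.0 and 1006 ± 146 FPKM and was not called (adjusted p = 0.941).

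Other routes into the cell were examined for comparison. Of 14 tested genes of the clathrin coat and its adaptors, 2 fell and 2 rose (median 0.04). Of all genes tested, 18.6% fell and 11.7% rose. Scaled to a sum of 1000000, or to the reads in listed genes, 1 clathrin gene fell and 7 rose. In these 2 scalings 29.3% and 29.1% of all genes rose. None of the clathrin genes rose without WT1, WT3, KO2 or KO3. Cltb, a clathrin light chain, fell from 15.1 ± 2.91 to 8.16 ± 1.28 FPKM (limma adjusted p = 0.00353) and Ap2s1, the small AP-2 subunit, fell by 0.52 on the log2 scale (adjusted p = 0.0173), a call lost without WT1 and WT2 (0.150), by quantiles (0.0548) and scaled to a sum of 1000000 (-0.26, adjusted p = 0.124) or to the reads in listed genes (-0.28, adjusted p = 0.115). Epn2 and Eps15, 2 accessory proteins, rose by 0.37 and 0.32 (adjusted p = 0.0312 and 0.0499), and both calls were lost when any of several single libraries was left out (up to adjusted p = 0.0857 for Epn2 and 0.132 for Eps15). The flotillins, scaffolds of other membrane domains, were not called: Flot1 was 33.6 ± 6.06 and 33.3 ± 3.93 FPKM, and Flot2 34.7 ± 3.15 and 34.6 ± 2.11 FPKM (limma adjusted p = 0.976 and 0.978). Scaled to a sum of 1000000, Flot2 was called higher (0.27, adjusted p = 0.0255).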

How the data were processed

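Poly(A) RNA of 8 libraries was sequenced by the authors, who deposited 1 table of FPKM values for 28295 genes. Per the submitters' processing notes, HISAT2 2.0.5, featureCounts and mm10 were used. The strand setting of counting was not given in the sources used here. Gene IDs matched a reference symbol for 99.9%, and positions are GENCODE M21 (mm10). FPKM are not counts, so log2(FPKM + 0.5) was tested with limma 3.58.1 (R 4.3.3; trend, robust), two-sided, over the 14400 genes with a mean of at least 0.5, with Benjamini-Hochberg adjustment. Errors beside log2 fold changes are moderated standard errors, and folds on this scale understate changes of low genes. The labels do not say which animal gave which library, so p-values measure the spread between these libraries. Whole reads were recovered from FPKM and exon lengths: 97.8% to 98.0% of values between 0.5 and 200 reads came within 0.02 of a whole number, and on them voom called 1822 genes higher and 2751 lower. Ratios between members were tested by exact permutation. The limma fit was checked on simulated data. The members and lists were chosen with earlier results of these data known. Named were all members and Cul3, up to 4 called genes per list by smallest adjusted p (else the 2 most abundant), and the 5 genes most like Cav1 and Cavin1. Not every gene that this rule names is reported here. Adipoq, Plin1, Cd36, Dnm2 and Cavin4 fall outside that rule and were named after their values were seen. Alternatives were other pseudocounts, filters, scalings, weights, a block, left-out libraries and, chosen after seeing the data, voom, scaling to reads in listed genes, and leaving out WT1 and WT2, which stood apart in liver-type genes in an earlier analysis.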

Additional observations from a re-analysis of the deposited data

How the results depend on the processing

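Across 21 alternatives for each tested member, Cavin1 kept its call in 21, and Cavin3 and Ehd2 in 20, the exception being without WT1 and WT2 (log2 fold changes of -0.58 and -0.68), where 1 member was called lower. Cav1 gained a call in limma without trend (-0.45), with array weights (-0.48) and by voom on the recovered reads (-0.45), and Cav2 with array weights (-0.61), which called 5 members lower. With 1 library left out, Cav1 ranged from -0.58 to -0.36, Cav2 from -0.76 to -0.40, and the number called lower from 3 to 5. Pacsin2 gained a call on values summed to 1000000 (0.49), with quantile normalization (0.35) and per read in listed genes (0.45), the settings in which 1 member was called higher. In the same 3 settings Cavin2 turned to 0.21, 0.23 and 0.18, without a call. Cul3 was higher in the first and last of them (0.37 and 0.33), where the median of all genes was 0.24 and 0.19. The cause of these changes was not tested.

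Over all genes, 2683 were called lower and 1689 higher. The counts were 1190 and 4226 on values summed to 1000000, 1266 and 4185 per read in listed genes, and 1036 and 722 without WT1 and WT2. With 1 library left out, 1858 to 2803 were lower and 1089 to 1937 higher. The labels do not say whether same-numbered samples were paired. The correlation of same-numbered deviations was -0.06, -0.13, 0.17 and -0.32, and that of other-numbered ones was -0.23 to 0.21. So few values cannot decide whether samples were paired. A replicate block gave 1995 lower and 1113 higher and changed no member's call: Cav1 -0.45, Cav2 -0.55, Cavin1 -0.75, Cavin2 -0.07, Cavin3 -0.84, Ehd2 -0.76 and Pacsin2 0.21. Of the listed genes that are not members, 40 were lower and 15 higher, beside 18.6% and 11.7% of all genes tested. The lower count was 23, 24 and 24 in the settings named first in this paragraph, in that order. The higher count was 29, 29 and 7 there, 9 without a filter, 25 with array weights, 9 with the block and 8 to 24 with 1 library left out.

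Named genes that changed sign were Clpx (0.23 on the summed scale, 0.11 by quantiles, 0.20 per listed read, 0.023 without WT1 and WT2, and -0.16 to 0.042 with 1 library left out), Flot1 (0.27, 0.19, 0.24, 0.17 and -0.073 to 0.11 likewise, and 0.0053 by median of ratios), Flot2 (0.27, 0.20, 0.24, 0.057 and -0.042 to 0.055, and 0.0079), Isca1 (0.094 on the summed scale and 0.067 per listed read) and Upk3b (-0.38 without WT1 and WT2, and -0.0080 to 0.56 with 1 library left out). Of these, Flot2 was called on the summed scale and per listed read. Ratios with FPKM + 0.5 or FPKM + 1 gave no call. With 3 against 4 libraries, or 4 pairs, the smallest exact p is 0.0571 or 0.125, so those ratios have no test; all 8 kept their direction there. Depth did not limit the tested members, with at least 1327 reads in each library, while Cav3 had at most 3.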
